A study of Mus musculus with 3 samples.

Results

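This account describes 842 promoters that carried few H3K4me3 counts in early meiotic prophase and many in late prophase. They were chosen from a table of 11140 promoters as those with fewer than 83 counts in the leptotene/zygotene library (LZ) and more than 135 counts in the pachytene/diplotene library (PD), at any count in elongating spermatids (ES). The 842 make up 7.56% of the table. The study measured H3K4me3 by chromatin immunoprecipitation and sequencing in germ cells of adult C57BL/6J mouse testes, with 1 library for each of the 3 stages. No treatment of the animals is named. All 3 libraries used tissue digested with collagenase and trypsin, micrococcal nuclease to cut the chromatin, and the same antibody. The labels do not say how the stages were separated or how many animals were pooled. With 1 library per stage no difference between stages has a replicate check, and no p-value is given.

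H3K4me3 is a histone mark laid down around the start sites of genes that are transcribed or ready for transcription. Leptotene and zygotene are the steps of meiosis in which chromosomes break and begin to pair, and transcription is low in these cells. Pachytene and diplotene spermatocytes are large cells with paired chromosomes and a broad transcriptional programme that includes many genes used after meiosis. In elongating spermatids the nucleus is compacted and most histones are exchanged for protamines. In bulk preparations like these, a higher count can mean more cells carrying the mark or more marked nucleosomes per cell, and these cannot be told apart. The promoters carry identifiers of assembled loci that the files do not pair with gene names or positions, and 0 of 11140 matched a mouse RefSeq gene or promoter table. Genes, sequences, chromosomes and marker genes of the labelled cell types are therefore not analysed here.

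Summed over the table, LZ held 1654906 counts, PD 4826890 and ES 17989325. These are totals over the table and not the depth of the libraries. Levels are given as counts and as CPM, the counts per 1000000 counts of that library over the table. The limit set by a count of 0 is 3 counts, or 1.81 CPM for LZ, 0.622 for PD and 0.167 for ES. Of the 842 promoters, 10 had 3 counts or fewer in LZ, and none was at 0 in any library.

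Because LZ and PD counts chose the promoters, their LZ and PD levels are a description of the choice. The LZ count ran from 1 to 82 with a median of 33, or 19.9 CPM. The PD count reached from the threshold to 3106 with a median of 357, or 74.0 CPM. The chosen promoters held 1.90% of all LZ counts, 9.58% of all PD counts and 4.34% of all ES counts. Their LZ level was not the lowest in the table. Promoters low in both libraries had a median of 14 LZ counts, and 169 of the 842 lay at or below that value. Their PD level was in turn below that of promoters high in both libraries, which had a median of 1018 PD counts, and 112 of the 842 reached that value.

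**Figure D1:**
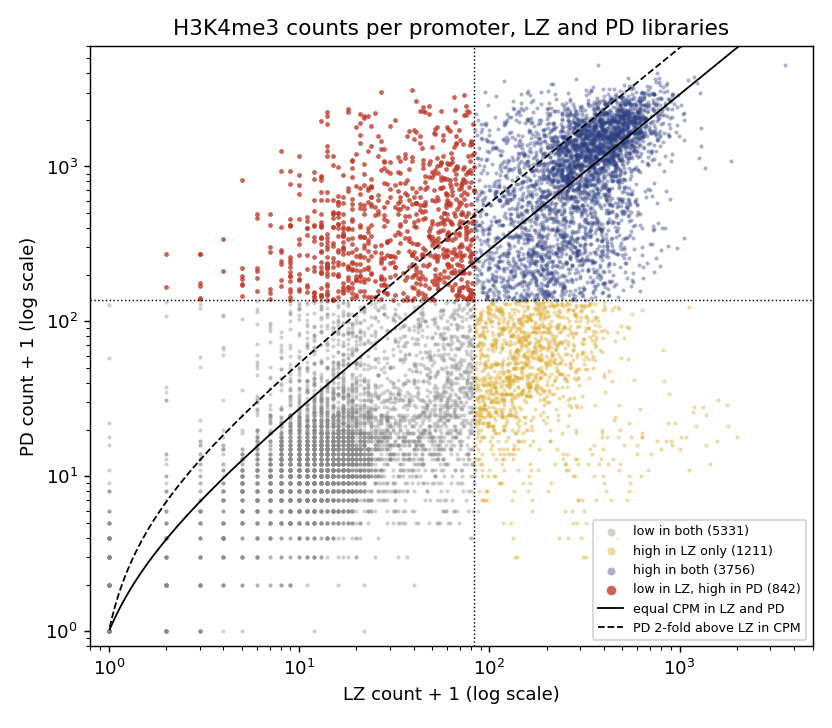
LZ count against PD count, each plus 1, on log axes for all 11140 promoters. Each point is 1 promoter and dotted lines mark the thresholds on both axes. The solid line marks equal CPM and the dashed line a PD level 2-fold above LZ; most of the 842 chosen promoters lie above the dashed line, and 40 lie below the solid one.

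The thresholds are set on raw counts of libraries with unequal totals, so they do not require a gain in CPM. The LZ threshold equals 50.2 CPM and the PD threshold 28.2 CPM. In CPM, PD exceeded LZ by 2-fold or more at 675 of the 842 promoters and by less at 127, and it was below LZ at 40. For the ratio, 1 count scaled to each library's total was added on both sides, and a call of 2-fold needed at least 20 counts in the higher library. Over all promoters that reached this minimum, 16.1% were at least 2-fold higher in PD and 40.9% lower. Since the rule used this contrast, the excess among the chosen promoters is built in. The 40 promoters below equality had a median LZ level of 43.8 CPM and a median PD level of 32.2 CPM. Their position depended on the scaling: 1 of the 842 was below equality with TMM factors and 29 after background subtraction, and none was with median-of-ratios size factors or quantile normalization. Both kinds of factor rescale whole libraries, quantile normalization gives all libraries the same distribution, and background subtraction removes the level of the weakest promoters. The 675 promoters were called higher in PD under all 5 scalings. Library totals gave the fewest such calls, against 710 to 814 with the other scalings, so this repeats the count with library totals. Over all promoters the share called higher ran from 16.1% with library totals to 44.0% with median-of-ratios size factors. The rule used both libraries, so a gain by late prophase is a description. It applies to the 675 promoters and not to all of the 842.

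On the log2 scale the median PD to LZ ratio was 2.20 for the 842 promoters and -0.99 for all promoters, which put them 3.19 apart. This gap ran from 2.27 with quantile normalization to 3.22 with median-of-ratios size factors. By counting error alone, the exact 95% interval of the PD to LZ ratio lay above 1 for 752 of the promoters and above 2 for 582. It included 1 for 72 and lay below 1 for 18. The rule used the same LZ and PD counts, so the choice shifts these ratios upward. The intervals therefore need not hold at 95% for the chosen promoters, and these numbers describe the choice. They were not counted over all promoters. A count of 83 has an exact 95% Poisson interval of 66.1 to 103, and a count at the PD threshold one of 114 to 161. The LZ interval lay wholly below 83 and the PD interval wholly above 135 for 636 of the 842 promoters. The other promoters could change class through counting error. These intervals cover counting error only, and any PCR copies left in the counts would make them too narrow. Such copies cannot be recognised from counts per promoter.

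Promoters on either side of a threshold differed little in the count that was cut. Ties were taken in order of locus number. The 10 nearest inside the LZ threshold had 81 to 82 LZ counts, with a median of 591 counts in PD and 836 in ES. The 10 nearest outside had 83 to 84 LZ counts, 333 in PD and 592 in ES. At the PD threshold, the 10 nearest inside had at most 137 PD counts, with a median of 32 counts in LZ and 228 in ES. The 10 nearest outside had 133 to 135 PD counts, 15.5 in LZ and 542 in ES.

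The ES library took no part in the choice, and there the chosen promoters had the lowest median of the 4 classes made by the 2 thresholds. Their ES count ran from 37 to 11327 with a median of 585, or 32.5 CPM, against a median of 873 counts and 48.5 CPM over all promoters. The 25th and 75th percentiles were 308 and 1001 counts, against 406 and 1773 over all promoters. The ES median was 695 counts for the low-in-both class, 825 for the class high in LZ only and 1079 for the high-in-both class. The order of the 4 medians was the same with both thresholds moved by 0.5 on the log2 scale, but the gap between the chosen promoters and the low-in-both class changed, from 646 against 687 counts with higher thresholds to 492 against 711 with lower ones. Most of the chosen promoters thus lay at or below the ES median of all promoters, as did most of those low in both or high in LZ only. The chosen promoters and those low in both overlapped widely, since the latter spanned 251 to 2066 counts between their 25th and 75th percentiles.

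The ranks within ES show where the difference lay. Of the 842 promoters, 264 (31.4%) were above the ES median, against 50.0% of all promoters. This share was 43.9% in the low-in-both class, 48.3% in the class high in LZ only and 63.3% in the high-in-both class. In the lowest 25.1% of ES, with at most 406 counts, lay 295 of them (35.0%). The low-in-both class reached 36.6% there, the class high in LZ only 26.8% and the high-in-both class 5.91%. At the lowest end the chosen promoters were fewer, with 62 (7.36%) in the lowest 10.1% of ES, against 16.6% of promoters low in both. At the upper end, 83 (9.86%) lay in the highest 25% of ES and 28 (3.33%) in the highest 10%. The corresponding shares in the highest 10% were 12.8% of the low-in-both class, 13.05% of the class high in LZ only and 6.52% of the high-in-both class. The chosen promoters were thus most frequent in the low to middle range of ES and least frequent at its top. Ranks within 1 library do not depend on scaling between libraries.

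**Figure D2:**
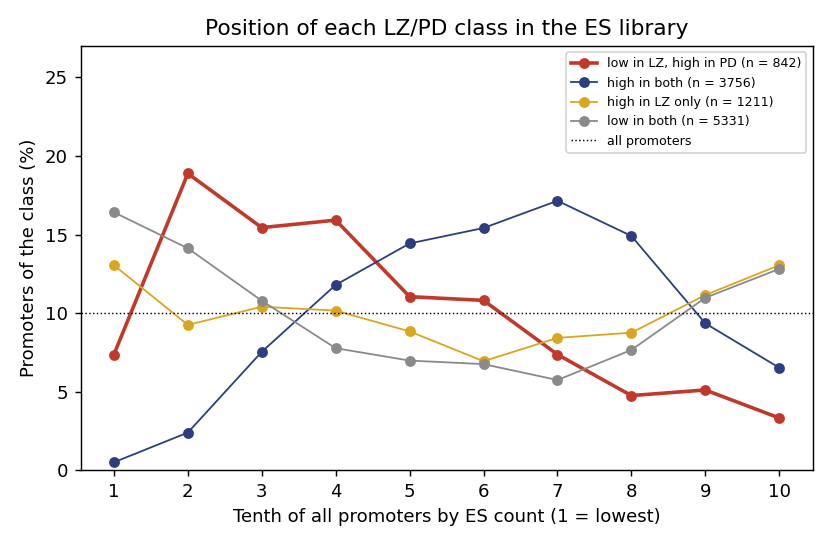
Share of each class of promoters in 10 equal bins of the table by ES count, from lowest to highest. The dotted line is the 10% that all promoters have in each bin. The 842 promoters low in LZ and high in PD (red) are most frequent in the bin next to the lowest, at 18.9%, and least in the highest, at 3.33%, while promoters low in both are frequent at both ends.

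Among the chosen promoters, those with more PD counts also had more ES counts. When they were divided by PD count into 4 groups of about equal size, the median ES count was 409 for up to 216 PD counts, 433 for 217 to 357, 578 for 358 to 686 and 872 for 690 to 3106. The share in the lowest 25.1% of ES was 50.0%, 46.0%, 33.2% and 10.9% in the same order. The share in the highest 10% of ES showed no such order, at 3.30%, 4.27%, 2.88% and 2.84%. The chosen promoters with the most PD counts were therefore rarely weak in ES, but they were no more often at its top. Spearman's rho between PD and ES counts was 0.30 across the 842 promoters, and Pearson's r of log2(count + 1) was 0.27. The rho was 0.32 in the high-in-both class, 0.29 in the class high in LZ only and 0.09 in the low-in-both class. Over all promoters it was 0.21. Promoters are not independent replicates, and both counts of a promoter come from the same window with the same base composition, whose part was not tested.

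Promoters high in both libraries had higher ES counts over the same ranges of PD count. In the range up to 216 PD counts their ES median was 920 (n = 326), against 409 for the chosen promoters (n = 212). In the range of 217 to 357 the medians were 841 (n = 429) and 433 (n = 211). From 358 PD counts up to 689 they were 790 (n = 597) and 578 (n = 208), and from 690 to 3106 they were 1166 (n = 2372) and 872 (n = 211). The chosen promoters were lower in each range, and the spans from the 25th to the 75th percentile overlapped in each. In the highest range the promoters high in both also had more PD counts, with a median of 1428 against 1045. These comparisons are descriptions of 3 libraries and were not tested.

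**Figure D3:**
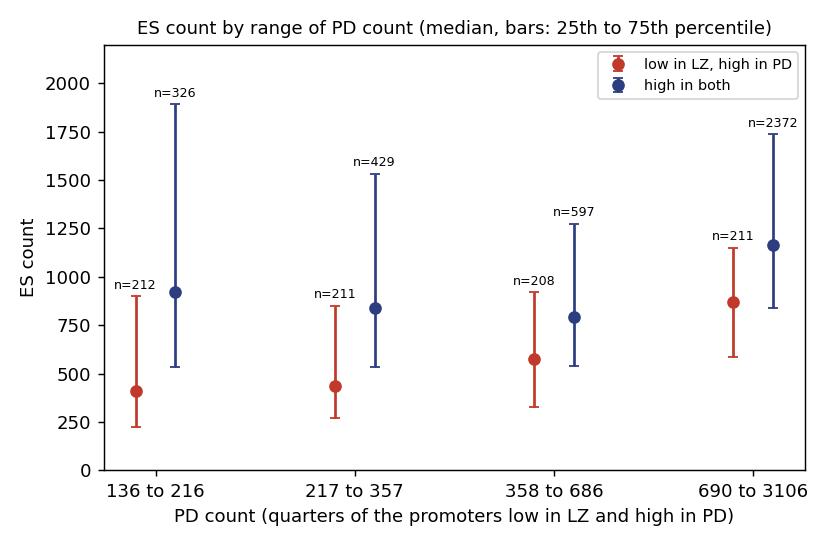
ES count of promoters in 4 ranges of PD count, for the 842 promoters low in LZ (red) and for promoters high in both spermatocyte libraries (blue). Points are medians, bars run from the 25th to the 75th percentile of promoters, and n is the number of promoters. Red medians lie below blue ones in each range, and run from 409 to 872 from the lowest range to the highest.

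The LZ count also went with the ES count among the chosen promoters. Divided by LZ count, the median ES count was 447 for 1 to 16 LZ counts, 511 for 17 to 33, 645 for 34 to 58 and 721 for 59 to 82. The Spearman rho between LZ and ES counts was 0.23 and the Pearson r was 0.24 over the same 842 promoters, near the 0.22 and 0.23 over all promoters. The ES medians differed by LZ count in the lower ranges of PD count and by little in the highest. With up to 216 PD counts, the 106 promoters at or below the median LZ count had a median of 316 ES counts and the 106 above it 518. With 217 to 357 PD counts these medians were 385 and 544, and with 358 to 686 they were 524 and 622. With 690 or more PD counts they were 875 and 872. The lowest ES median was thus at promoters near the PD threshold with the fewest LZ counts. These differences were not tested.

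Set against promoters low in both over the same LZ counts, the chosen promoters had a lower ES median in the 2 lower ranges only. With 1 to 16 LZ counts the ES median was 447 for the chosen promoters and 677 for those low in both. With 17 to 33 it was 511 and 920. With 34 to 58 it was 645 and 601, and with 59 to 82 it was 721 and 697. The upper end differed in all 4 ranges. Between 0.943% and 6.13% of the chosen promoters lay in the highest 10% of ES, against 10.6% to 17.6% of those low in both. Over the same LZ counts, promoters in the highest 10% of ES were thus less frequent among the chosen promoters than among those low in both. This does not extend to PD counts in general. Over whole classes the share was 3.33% of the chosen promoters and 6.52% of the high-in-both class, which also has high PD counts.

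From PD to ES, the CPM of 550 of the 842 promoters was lower by 2-fold or more, that of 63 was higher by as much, and that of 229 lay within 2-fold. Over all promoters with enough counts, 29.7% were lower and 52.2% higher. PD counts chose the promoters and enter this ratio, so a lower ES level is partly built in. Promoters high in both, also chosen for a high PD count, were lower in ES in 68.6% of cases, against 65.3% of the 842. The median log2 ratio of ES to PD was -1.54 for the chosen promoters and 1.25 for all promoters, and the gap of -2.80 ran from -2.26 to -2.81 over the 5 scalings. A level at least 2-fold lower in ES was found at 543 of the 842 promoters under all 5 scalings, and one at least 2-fold higher at 19. Calls under all 5 scalings were not counted over all promoters. Under single scalings, 29.7% to 42.8% of all promoters were lower and 33.2% to 52.2% higher.

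From LZ to ES, 376 of the promoters were at least 2-fold higher and 81 at least 2-fold lower, against 40.2% higher and 34.5% lower over all promoters. This is 44.7% and 9.62% of the chosen promoters, whose low LZ count enters the ratio. The balance depended on the scaling. With quantile normalization 252 were higher and 246 lower, against 33.4% higher and 40.9% lower over all promoters. After background subtraction 403 were higher and 170 lower, against 40.3% and 40.1% over all promoters. The median log2 ratio of ES to LZ was 0.78 with library totals and -0.12 with quantile normalization, so its direction depended on the scaling. The comparisons of PD with LZ, ES with PD and ES with LZ share libraries and are not independent of each other.

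Joined over the 3 stages, the most common course was a PD level above both other stages. At 492 promoters (58.4%) the PD level was at least 2-fold above both LZ and ES, against 8.81% of all promoters. The choice by LZ and PD counts builds in most of this excess. Among promoters called higher in PD than LZ, 492 of the 675 chosen ones had this course, and 437 of the 506 in the high-in-both class. In the low-in-both class it was 52 of the 151. The LZ median of the 492 promoters was 15.7 CPM, the PD median 118 CPM and the ES median 25.3 CPM. Of these, 485 had this course under all 5 scalings, which was not counted over all promoters. At 153 promoters PD was at least 2-fold above LZ and ES stayed within 2-fold of PD, a course that 2.63% of all promoters had and that the choice favours in the same way. Their medians were 11.5, 61.3 and 51.2 CPM in stage order. Of promoters called higher in PD, 66 of the 506 high in both and 74 of the 151 low in both had this second course. At 30 promoters (3.56%) PD was at least 2-fold above LZ and ES at least 2-fold above PD, against 0.521% of all promoters. The choice again favours the step from LZ to PD. Of promoters called higher in PD than LZ, 30 of the 675 chosen ones had this course. In the high-in-both class 3 of the 506 had it, and in the low-in-both class 25 of the 151. With or without a call from LZ to PD, ES was at least 2-fold above both other stages at 61 of the 842 (7.24%). Over all promoters with enough counts this share was 36.2%. The high PD count required by the choice lowers the share of the 842. ES was at least 2-fold above PD at 7.48% of the 842 and at 6.52% of the high-in-both class. The medians of the 30 promoters were 14.5 CPM, 46.5 CPM and 221 CPM in stage order. The promoters with a lasting or increasing level had fewer PD counts than those with PD above both, with medians of 296 and 224.5 against 568.5, although PD took part in the choice and in the ratio. The other 167 promoters had a PD level under 2 times the LZ level.

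**Figure D4:**
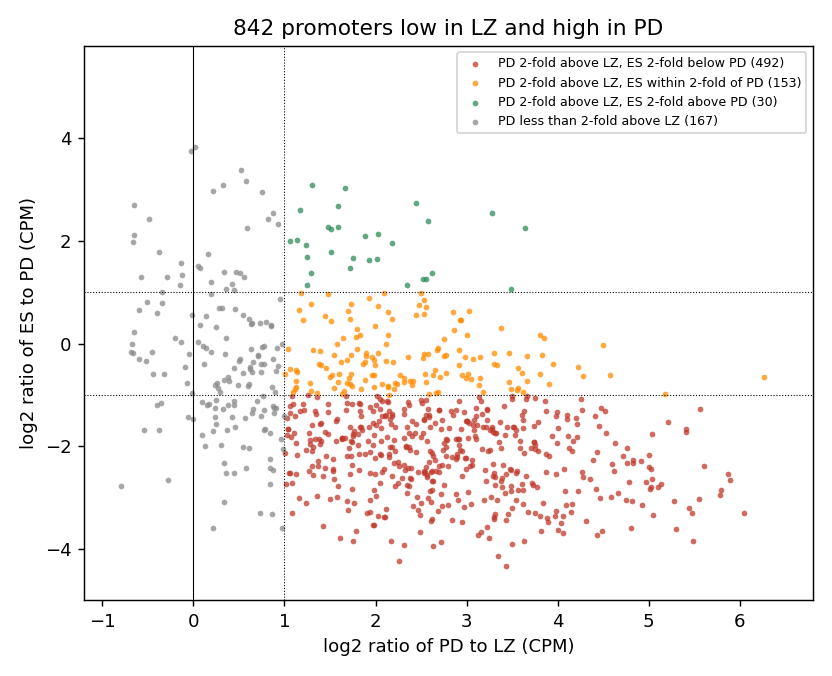
log2 ratio of PD to LZ against log2 ratio of ES to PD for the 842 promoters, both from CPM with library totals. Each point is 1 promoter and dotted lines mark 2-fold. The 492 red points (PD above both other stages) fill the lower right, 153 orange points lie within 2-fold of PD in ES, and 30 green points are higher again in ES; PD enters both axes.

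The median ES level was similar at promoters with and without a 2-fold gain in CPM. The median ES count was 582 for the 675 promoters at least 2-fold higher in PD, 613 for the 127 higher by less and 574 for the 40 lower. The shares in the lowest 25.1% of ES were 35.7%, 33.1% and 30.0%. The shares in the highest 10% were 2.67%, 7.09% and 2.50%, so the upper end differed more. The low ES median therefore did not rest on the promoters that passed the rule without a gain in CPM.

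The 28 chosen promoters in the highest 10% of ES had between 4561 and 11327 ES counts, with a median of 5909 or 328 CPM. Their median counts were 45 in LZ and 286 in PD, and 6 of them had more than 689 PD counts. The 62 in the lowest 10.1% of ES had 37 to 164 ES counts, with a median of 7.14 CPM. Their median counts were 21.5 in LZ and 202 in PD, and 2 of them had more than 689 PD counts. The median PD count of both groups was thus below the 357 of all chosen promoters, although single promoters reached 2407 PD counts in the first group and 733 in the second. The PD counts of the 519 promoters between the highest 10% and the lowest 25.1% were higher, with a median of 447.

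Identifiers without gene names say little, so 4 loci are named by a fixed rule of size. MSTRG.6179 and MSTRG.8413 had the highest lower bounds of the PD to LZ ratio among promoters with a lower level in ES. For MSTRG.6179 the LZ count was 13, the PD count 2247 and the ES count 1446. In CPM these were 7.86 (exact 95% Poisson interval 4.18 to 13.4), 466 (446 to 485) and 80.4 (76.3 to 84.6). The PD level was high and the ES level lay between the others, at 0.173 times PD (interval 0.162 to 0.185) and 10.2 times LZ (5.96 to 19.3). The intervals do not cover the choice of scaling: over the 5 scalings the log2 ratio of PD to LZ ran from 5.33 to 7.51, and that of ES to PD from -3.85 to -2.20.

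MSTRG.8413 had 13 LZ, 2126 PD and 1019 ES counts, which is 7.86, 440 (422 to 460) and 56.6 CPM (53.2 to 60.2). Its PD level was 56.1 times the LZ level with library totals (32.7 to 105). Over the 5 scalings its PD to LZ ratio ran from 5.24 (quantile normalization) to 7.43 (background subtraction) in log2 units, and was 6.96 under median-of-ratios scaling. The ES to PD ratio ran from -4.27 to -2.96 in the same units. Both loci had an ES level above the median of all promoters, 48.5 CPM, although it was far below their own PD level.

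MSTRG.10760 and MSTRG.11699 had the highest ES to PD ratios among the 675 promoters. MSTRG.10760 had 31 LZ, 224 PD and 7174 ES counts. Its levels were 18.7 CPM (interval 12.7 to 26.6), then 46.4 CPM (40.5 to 52.9), then 399 CPM (390 to 408). With library totals the level went up at each step, 2.48 times from LZ to PD (1.70 to 3.73) and 8.59 times from PD to ES (7.52 to 9.86). The size of each step depended on the scaling. In log2 units the first step was 1.30 with library totals and 2.48 with median-of-ratios size factors, and the second was 3.10 and 1.78. MSTRG.11699 had 17 LZ, 158 PD and 4818 ES counts. Its levels were 10.3 CPM (interval 5.98 to 16.4), then 32.7 CPM (27.8 to 38.3), then 268 CPM (260 to 275). Its steps were 3.19 times (1.93 to 5.61) and 8.18 times (6.98 to 9.65) with library totals. In log2 units they were 1.66 and 3.03, against 2.84 and 1.71 with median-of-ratios size factors. At both loci the interval of the first step lies above 1, but its lower bound lies below 2. Given counting error, it is thus uncertain with library totals whether the gain by PD reached 2-fold. The direction of both steps at all 4 loci was the same under all 5 scalings. The loci were selected for extreme ratios, so these may be too large.

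Other extremes are given without identifiers. The promoter with the most PD counts among the 842 had 38 LZ, 3106 PD and 957 ES counts. The one with the most ES counts had 72 LZ, 213 PD and 11327 ES counts, and its PD level equalled its LZ level within counting error, with a ratio of 1.01 (0.773 to 1.34). The one with the fewest ES counts had 2 LZ, 138 PD and 37 ES counts. The lowest ES to PD ratio was at a promoter with 23 LZ, 733 PD and 134 ES counts, where the ES level was 0.0491 times the PD level (0.0405 to 0.0590). The lowest PD to LZ ratio was 0.576 (0.434 to 0.768), at a promoter with 81 LZ counts, a PD count at the threshold and 72 ES counts.

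The chosen promoters were spread over the table. In order of locus number, 694 of the 842 stood alone, 108 stood in 54 pairs of successive listed loci, 24 in 8 runs of 3 and 16 in 4 runs of 4. The next listed locus was also chosen for 82 of the 842 (9.74%) and for 760 of the 10297 other promoters (7.38%). In 20 successive blocks of the table, between 4.49% and 10.6% of the promoters were chosen. No source used here says whether locus numbers follow genome positions, so these runs are described by number only.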

How the data were processed

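H3K4me3 was profiled in 3 libraries, 1 for each stage. The authors deposited raw counts for 11140 promoters, with no normalization, and the file's name gives a 2 kb promoter window. Trim Galore, STAR and the mm10 build are named without versions per the submitters' processing notes. No source used here names the counting tool, the treatment of duplicates, the window's placement or how promoters were chosen. Chromatin cut with micrococcal nuclease carries that enzyme's sequence preferences into the counts.

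Groups came from the cell type label and columns from the description label. The members, lists and comparisons were chosen with earlier results of these data known. CPM, ratios and ranks were computed from the counts with Python 3.11.15, numpy 2.4.6, pandas 2.3.3 and scipy 1.17.1. Calls needed a 2-fold ratio and 20 counts in the higher library. Before the ratio, the same CPM was added to each library, equal to 1 count at the mean library total. The classes high or low in LZ and PD use the same thresholds as the choice of members, under 83 LZ and over 135 PD counts. Intervals are exact 95% Poisson for levels and Clopper-Pearson for ratios. Other scalings were edgeR's TMM (version 4.0.16), DESeq2's median-of-ratios size factors (version 1.42.0), quantile normalization, background subtraction (each library less its median CPM over the 10% of promoters lowest on average). Other settings were a 4-fold threshold, no minimum count, thinning to the LZ total and moved thresholds. No test of edgeR or DESeq2 was run, since no stage has replicates. The splits of the chosen promoters by LZ or PD count, and the courses over 3 stages by group, were chosen after values were seen. The named loci were the 2 with the highest lower bound of the PD to LZ ratio among those at least 2-fold higher in PD and lower in ES, and the 2 with the highest ES to PD ratio among those higher in PD.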

Additional observations from a re-analysis of the deposited data

How the results depend on the processing

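No paired analysis was possible because the stages have a single library each, and no replicate could be left out. Counts stayed within 1.5 times the reported ones except as follows. With median-of-ratios size factors, ES exceeded PD by 2-fold at 19 of the 842 promoters, 81 were higher in PD with ES within 2-fold of PD, 17 were higher in PD and again in ES, and 19 had ES above both other stages, against 61 with library totals. With quantile normalization, 246 were lower in ES than in LZ, 87 were higher in PD with ES within 2-fold, and 47 were higher again in ES. After background subtraction, 170 were lower in ES than in LZ. At a 4-fold threshold, which lowers most counts by construction, ES was higher than PD at 28 and lower at 300, and higher than LZ at 192 and lower at 15. At that threshold PD was above both others at 227, ES was within 4-fold of a higher PD at 241, ES was higher again at 5, and ES was above both others at 26. With both selection thresholds moved up by 0.5 on the log2 scale the median ES count was 646 and the share in the lowest 25.1% of ES was 29.2%; moved down, these were 492 and 43.5%. A lower LZ and a higher PD threshold together left 508 promoters. The LZ library, with the smallest total, limits the precision of the PD to LZ ratios.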
